A study of Drosophila melanogaster with 5 samples.

Results

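Ilp8, a relaxin-like peptide hormone gene of imaginal discs, was examined together with the gene of its receptor, Lgr3, and with genes of systemic insulin signalling in discs and disc tumors of Drosophila larvae. The set named 8 genes by their role: Ilp8, Lgr3, ImpL2, Ilp6, InR, chico, foxo and Thor. Of these, 6 were found among the 11981 genes with a probe set naming exactly 1 gene, each with 1 probe set. Ilp6, an insulin-like peptide gene of the fat body, and Thor, which encodes a translation inhibitor acting below TOR, had no such probe set and were not analysed here. Of the 6, 5 passed a filter on dim genes, which left 7850 genes in all. Lgr3 did not pass it.

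RNA of eye-antennal discs, the sheets of larval cells from which the adult eye, antenna and head capsule develop, was hybridised to 5 arrays, 1 for each group. Larvae of the third instar were grown at 25 °C. The WT control array held 79E control discs, and the Ras array held tumors that overexpressed Ras and carried no further mutation named in the labels. The other arrays held tumors of Sras mutant 1, of Sras mutant 2 and of a scrib mutant, each with Ras overexpression as well. Clones were marked with GFP by MARCM, a technique that makes homozygous marked cells in an otherwise heterozygous animal. The alleles, the Ras form, the driver, the number of animals per array and whether marked tissue was separated from its surroundings are not stated in the labels. Levels and differences are log2 values from quantile-normalized arrays. Each difference is between single arrays, so no test was possible. The nearest guide to the spread was the SD of the difference between the Sras arrays, 0.243 over 7850 genes. It is not a replicate error, because the Sras mutants are separate groups. Levels under 6.36, the filter value (the 40th percentile of all gene values), were read as close to background.

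Damaged or overgrown discs secrete Ilp8, which acts on Lgr3 in neurons of the brain. Those neurons restrain the release of the brain hormone PTTH, and so delay the ecdysone pulse that starts metamorphosis. Insulin-like peptides bind the receptor InR, which signals through its substrate chico to PI3K and Akt, and Akt keeps the transcription factor foxo out of the nucleus. ImpL2 is a secreted protein that binds insulin-like peptides and lowers insulin signalling in other tissues. It is known from fly tumor models as a signal of wasting.

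The arrays differed in RNA of other larval tissues, and that difference enters each comparison of a mutant with Ras or WT control. The 7 salivary gland markers summed to 149025 (linear units) in WT control and 132364 in Ras. In the mutants they summed to 705.3 (Sras mutant 1), 4881 (Sras mutant 2) and 496.03 (scrib). Summed levels of 7 muscle markers (of 10 listed) were 17753 and 19031 in WT control and Ras, and between 993.03 and 1378 in the mutants. Of these, sls went the other way, at 0.73, 0.85 and 0.97 in the 3 mutants minus Ras. Fat body markers (6 of 10) summed to 43911 and 41604, against 8567, 15191 and 10080. Among them FASN1 went the other way (0.73, 0.78 and 1.31 in the 3 mutants minus Ras) and was the highest in each mutant. Neuron and glia markers (8 of 10) summed to 11451 and 10220, against 4304 to 4685. Most of that gap lay in 1 gene, Gs2 of glia, and the other 7 summed to 4225, 4790, 4337, 4304 and 4054 from WT control to scrib. Among those 7, repo (−3.13) and elav (−1.90) were 2-fold lower than Ras in scrib, and moody (1.08) was 2-fold higher. Hemocyte markers (10 of 10) were at 13796 in WT control, and at 4663, 4294, 3028 and 3189 in Ras, Sras mutant 1, Sras mutant 2 and scrib. The highest of them in WT control were PPO2 (12.47) and PPO1 (11.71). Their Ras minus WT control differences were −2.29 and −2.27, where the median of the 10 was −0.77. In the Sras arrays lz was higher than Ras (1.42 and 1.33). Markers of insulin-producing and ring gland cells (8 of 9) summed to 9206, 6544, 2448, 1690 and 1033 in WT control, Ras, Sras mutant 1, Sras mutant 2 and scrib. In bulk RNA, fewer cells of a type and less RNA per cell cannot be told apart. The part of these differences in the results below was not tested. As for the labelled tissue, 19 of 21 eye and antennal identity genes had a probe set. None was under the filter value in WT control, Ras or the Sras arrays, and 1, lz, was under it in scrib (5.56). Their levels did differ. Against Ras, 8 and 7 of the 19 were at least 2-fold higher in Sras mutant 1 and Sras mutant 2 and 0 lower. In scrib 4 were higher and 8 lower, eya (−3.36) and gl (−3.13) the most. Of all kept genes, 4.04%, 4.96% and 9.26% were higher than Ras in the 3 mutants, and 9.77%, 9.95% and 14.2% lower. The Ras array stood apart in 3 control transcripts, whose 3′ and 5′ probe sets differed by a mean of 1.35, against 0.88 to 0.95 in the other arrays.

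**Figure D1:**
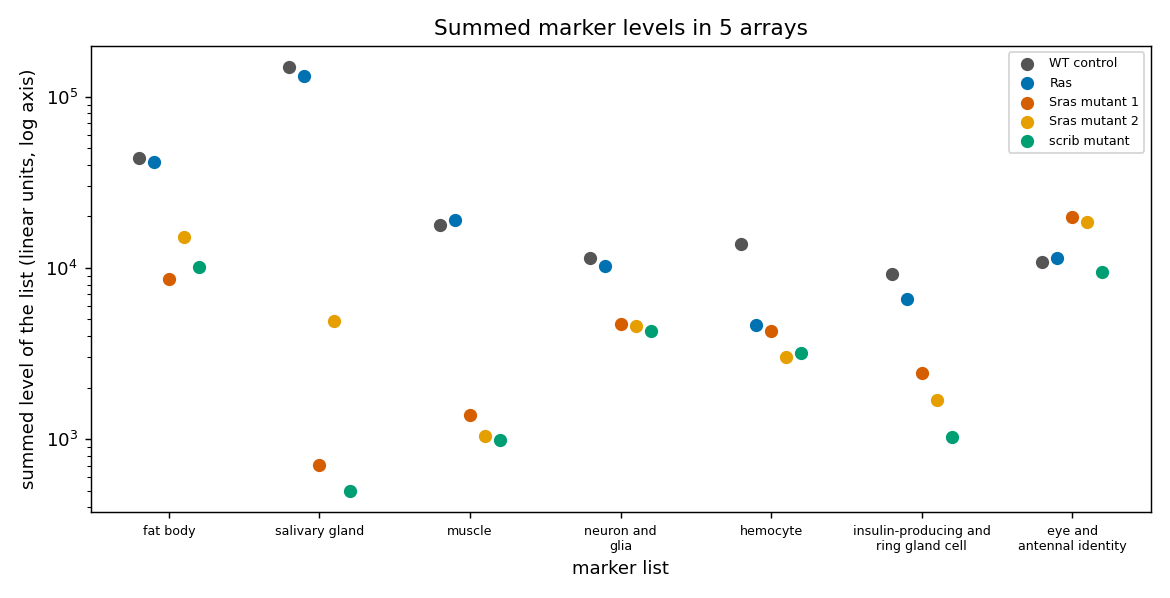
Summed levels of 7 marker lists (linear units on a log axis) in the 5 arrays, 1 point per array. Salivary gland and muscle sums of WT control and Ras lay far above those of the 3 mutant arrays, while eye and antennal identity genes summed to between 9442 in scrib and 19710 in Sras mutant 1.

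Ilp8 was at background in control discs, intermediate with Ras alone and very high in all 3 mutant tumors. Its level was 5.00 in WT control, 8.21 in Ras, 12.26 in Sras mutant 1, 12.57 in Sras mutant 2 and 11.19 in scrib. The range of 7.57, a 190-fold spread, was the 19th largest of 7850 kept genes, for which the median range was 0.68. In order from lowest to highest the arrays stood as WT control, Ras, scrib, Sras mutant 1 and Sras mutant 2. The gaps between neighbours were 3.21, 2.98, 1.07 and 0.31, so that the last, between the Sras arrays, was the one closest to the SD of 0.243. Because WT control lay under the filter value, differences from it rest on a background reading. Against the filter value itself, Ilp8 was 3.61-fold higher in Ras, 59.8-fold in Sras mutant 1, 74.1-fold in Sras mutant 2 and 28.5-fold in scrib.

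Lgr3, the receptor of Ilp8, was under the filter value in every array. Its level was 6.21 in WT control, 5.49 in Ras, 5.13 in Sras mutant 1, 5.02 in Sras mutant 2 and 5.04 in scrib. WT control was highest and the 3 mutant arrays were lowest, within 0.11 of each other. Since all 5 values were near background, these differences are not read as changes in the receptor. Lgr4 and rk, 2 related leucine-rich repeat receptor genes, were also under the filter value in all 5 arrays, with levels from 4.76 to 5.57, and Lgr1 of the same list of 4 had no probe set.

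ImpL2, the secreted insulin antagonist, was well above background in every array and highest in the scrib tumor. Its level was 11.70 in WT control, 11.71 in Ras, 12.55 in Sras mutant 1, 13.15 in Sras mutant 2 and 14.41 in scrib. WT control and Ras differed by 0.01, far less than the SD between the Sras arrays. Each further step, from Ras to Sras mutant 1 (0.84), to Sras mutant 2 (0.60) and to scrib (1.26), exceeded it. Among the mutants scrib was thus highest for ImpL2 and lowest for Ilp8, while both genes were higher in Sras mutant 2 than in Sras mutant 1. The name of the ImpL2 probe set ends in s_at, the suffix that the array's maker gives to probe sets able to match more than 1 transcript.

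InR, the receptor gene of the insulin pathway, and chico and foxo, which act below it, varied far less. InR read 9.08 in WT control, 9.19 in Ras, 9.19 in Sras mutant 1, 9.60 in Sras mutant 2 and 9.92 in scrib. The lowest 3 of these were within 0.11 of each other, and Sras mutant 2 and scrib stood above them. For chico, the levels were 9.15, 9.15, 9.59, 9.48 and 9.74 in the same order of arrays. WT control and Ras did not differ beyond the SD, nor did the neighbours among the 3 higher mutant arrays. For foxo, the levels were 6.59, 6.53, 7.10, 7.07 and 7.71, with WT control and Ras near the filter value, the Sras arrays within 0.03 of each other, and scrib highest. The ranges of InR (0.84), chico (0.59) and foxo (1.18) ranked 3122nd, 4474th and 2193rd of 7850, against 661st for ImpL2 (2.71).

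**Figure D2:**
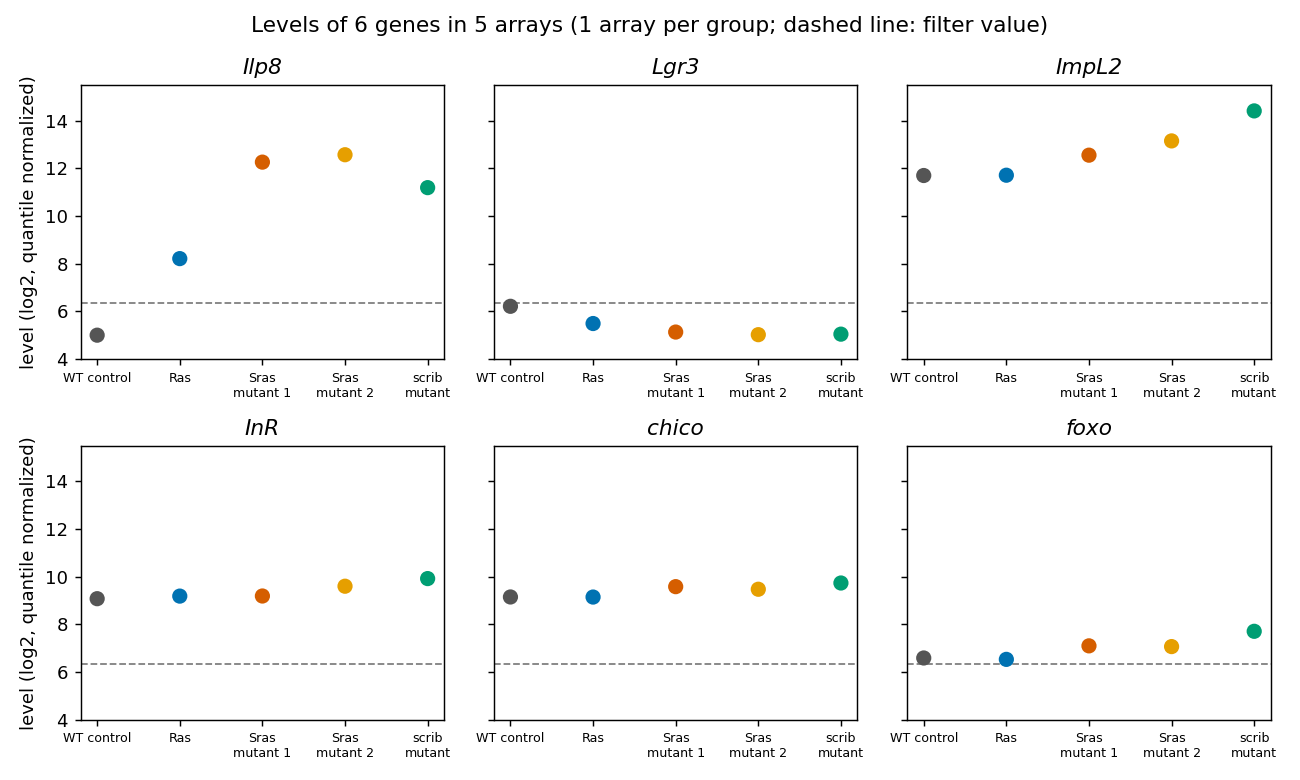
Levels (log2, quantile normalized) of the 6 measured genes in the 5 arrays, 1 point per array, with the filter value of 6.36 as a dashed line. Ilp8 runs from 5.00 to 12.57, ImpL2 from 11.70 to 14.41, Lgr3 stays under the line, and InR, chico and foxo each span 1.18 or less.

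The first comparison asked which of these genes differed between Ras tumors and control discs. Ilp8 was 3.21 higher in Ras, a 9.27-fold difference and the third highest of 7850. The WT control reading was under the filter value, so both describe a background reading, and against the filter value Ras was 3.61-fold higher. The other 4 kept genes lay within the SD: InR at 0.11, ImpL2 at 0.01, chico at −0.00 and foxo at −0.06. Of the 5 kept genes 1 was thus at least 2-fold higher and 0 lower, where 0.701% of all kept genes were 2-fold higher and 1.36% lower. The median of the 5 was 0.01, and that of all kept genes was 0.02. Lgr3 lay at −0.72, with both readings under the filter value.

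The next comparisons set each Sras mutant tumor against Ras alone. Ilp8 exceeded Ras by 4.05 in Sras mutant 1 (16.5-fold) and by 4.36 in Sras mutant 2 (20.5-fold), at ranks 2 and 3 from the highest of 7850. ImpL2 exceeded Ras by 0.84 (1.79-fold) and by 1.44 (2.71-fold). Both differences were over 3 times the SD, and the second alone passed 2-fold. For foxo the differences were 0.57 and 0.54, for chico 0.44 and 0.33, and for InR 0.00 and 0.41, Sras mutant 1 first. In Sras mutant 1, 1 of 5 kept genes was at least 2-fold higher and 0 were lower, against 4.04% and 9.77% of all kept genes. In Sras mutant 2, 2 of 5 were higher and 0 lower, against 4.96% and 9.95%. The medians of the 5 were 0.57 and 0.54, beside 0.11 and 0.08 over all kept genes. Both comparisons use the same Ras array. Centring shifts all genes of an array by 1 amount. Centring on the eye and antennal identity genes, which summed to 19710 and 18588 in the Sras arrays, 11503 in Ras and 9442 in scrib, moved the median of all kept genes to −0.58 and −0.66. It turned the smaller differences to −0.28 and −0.32 for foxo, −0.20 and −0.38 for chico, and −0.64 and −0.29 for InR, and left Ilp8 at 3.28 and 3.53 and ImpL2 at 0.15 and 0.65.

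The scrib tumor serves in the design as positive control, and the Ras array was again its reference. Ilp8 was 2.98 higher (7.88-fold, rank 37) and ImpL2 was 2.70 higher (6.49-fold, rank 54). The other differences were 1.18 for foxo, 0.74 for InR and 0.59 for chico. All 5 kept genes stood above Ras by more than the SD of 0.243. Of them 3 were at least 2-fold higher and 0 lower, against 9.26% and 14.2% of all kept genes, with a median of 1.18 beside 0.12. The foxo value depends on the normalization: with the values as deposited it was 0.80, after centring on array medians 0.93, and neither reached 2-fold.

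**Figure D3:**
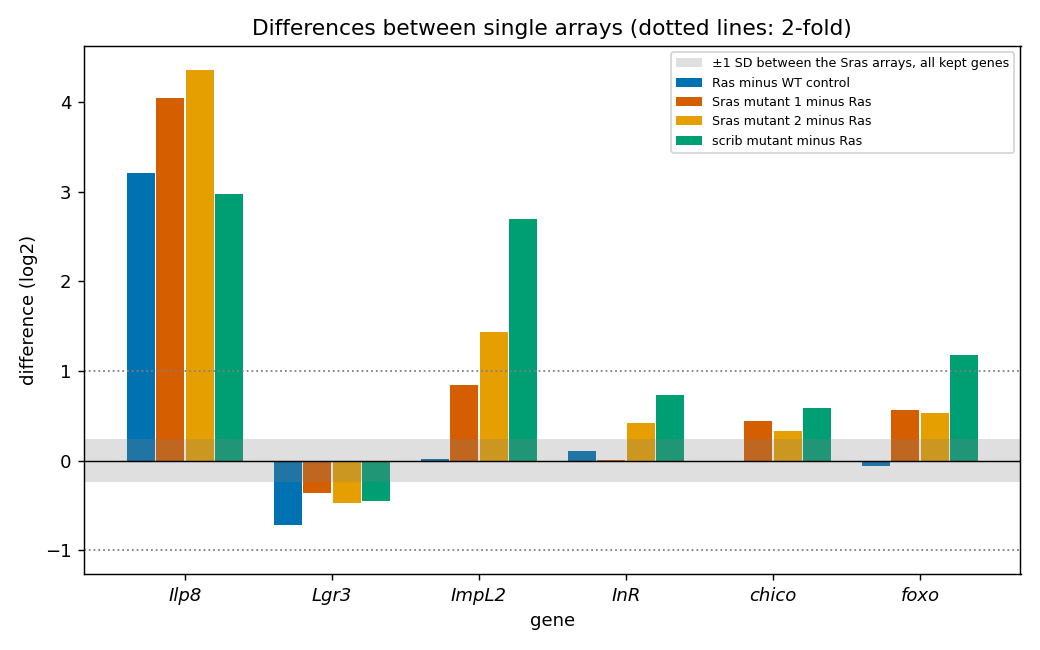
Differences in log2 units for Ras minus WT control and for each mutant minus Ras, 1 bar per comparison of single arrays, with the SD between the Sras arrays as a grey band and 2-fold as dotted lines. Ilp8 passes 2-fold in all 4 comparisons (2.98 to 4.36), ImpL2 in Sras mutant 2 and scrib (1.44 and 2.70), and foxo in scrib (1.18).

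Against control discs, Ilp8 stood further above WT control in the mutant tumors than any other kept gene. The difference was 7.26 in Sras mutant 1, 7.57 in Sras mutant 2 and 6.19 in scrib, rank 1 from the highest of 7850 in each, with WT control at background, so that the size and rank rest on a background reading. ImpL2 differed by 0.85, 1.45 and 2.71 in the same order. In Sras mutant 1, 1 of 5 kept genes was at least 2-fold higher and 0 lower, against 5.75% and 10.5% of all kept genes. In Sras mutant 2 the count was 2 higher and 0 lower, against 6.6% and 10.8%. In scrib it was 3 and 0, the third being foxo at 1.12 (0.73 with the values as deposited and 0.88 after centring on array medians), against 10.5% and 14.8%. With the identity genes as reference, ImpL2 in Sras mutant 1 lay at −0.07, and in Sras mutant 1 and Sras mutant 2 foxo lay at −0.60 and −0.65, chico at −0.41 and −0.58, and InR at −0.74 and −0.38.

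The mutant tumors were then compared with each other. Ilp8 was higher in the Sras arrays than in scrib, by 1.07 (2.10-fold) in Sras mutant 1 and 1.38 (2.60-fold) in Sras mutant 2. Centring on the identity genes turned these to −0.73 and −0.49, and moved the median of all kept genes to −1.72 and −1.81. The direction of the Ilp8 difference between Sras and scrib therefore depends on the reference chosen. ImpL2 lay on the other side, at −1.86 (3.62-fold lower) and −1.26 (2.39-fold lower). The values for InR were −0.73 and −0.32, for foxo −0.61 and −0.64, and for chico −0.15 and −0.26. In Sras mutant 1, 1 kept gene was at least 2-fold higher than scrib and 1 lower, against 8.03% and 4.85% of all kept genes. In Sras mutant 2 the counts were also 1 and 1, against 8.1% and 4.28%. Between the Sras arrays no kept gene of the 5 was 2-fold apart, where 0.497% of all kept genes were higher in Sras mutant 2 and 0.178% lower. The differences there were 0.60 for ImpL2, 0.41 for InR, 0.31 for Ilp8, −0.11 for chico and −0.03 for foxo.

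Of the other insulin-like peptide genes, only Ilp2 and Ilp5 passed the filter, and both went the opposite way from Ilp8. Of the list of 8, 4 had a probe set and 3 passed the filter. Ilp2 and Ilp5, made by insulin-producing neurons of the brain, were lower than Ras in all 3 mutants. The level of Ilp2 was 9.16 in WT control, 8.57 in Ras, 6.67 in Sras mutant 1, 6.23 in Sras mutant 2 and 6.39 in scrib. For Ilp5 it was 8.93, 8.21, 6.11, 5.37 and 5.40. Both were above the filter value in WT control and Ras and near or under it in Sras mutant 2 and scrib. They passed the filter through WT control and Ras, and both stand in the marker list of insulin-producing and ring gland cells, whose sum was 9206 and 6544 in WT control and Ras and 1033 to 2448 in the mutants. Ilp7, a peptide gene of neurons, was under the filter value in all 5 arrays (4.50 to 4.86).

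Of the other secreted insulin-binding proteins, neither reached 2-fold against Ras in any mutant. The list held ImpL2, Sdr, a secreted decoy related to the insulin receptor, and conv, which encodes the fly relative of the acid-labile subunit of mammals. Sdr read 7.63 in WT control, 7.67 in Ras, 7.70 in Sras mutant 1, 7.77 in Sras mutant 2 and 8.25 in scrib. For conv the levels were 9.28, 9.17, 9.83, 10.07 and 9.96. Sdr was higher in scrib alone by more than the SD, and conv was higher in all 3 mutants.

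Along the path from the receptor to foxo, 8 of 14 listed genes had a probe set and all 8 passed the filter. At least 2-fold above Ras were 1 gene in each Sras mutant and 2 in scrib, and none were 2-fold lower, where 4.04%, 4.96% and 9.26% of all kept genes were higher and 9.77%, 9.95% and 14.2% lower. The gene in common was melt, a regulator that recruits pathway components to the membrane, at 1.42, 1.37 and 1.45, and the second in scrib was foxo. The levels of melt were 8.02 in WT control, 7.90 in Ras, 9.32 in Sras mutant 1, 9.27 in Sras mutant 2 and 9.34 in scrib. Akt, the central kinase, ran from 10.15 in scrib to 10.35 in WT control, a span within the SD. Pdk1, the kinase that activates Akt, differed from Ras by −0.15 in Sras mutant 1, 0.35 in Sras mutant 2 and −0.87 in scrib. List medians were 0.07, 0.34 and 0.22 for the 3 mutants minus Ras. With the identity genes as reference they were −0.59, −0.36 and 1.34, where the median of all kept genes was −0.58, −0.66 and 1.15. Of the list, 0, 0 and 4 genes were then 2-fold higher. The share of all kept genes past 2-fold was not counted in that setting, so these counts are not read as results about the list. For Ras minus WT control no gene of the list was 2-fold apart, where 0.701% of all kept genes were higher and 1.36% lower.

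In the TOR branch, the growth arm that insulin feeds, 13 of 16 listed genes had a probe set and passed the filter. None were 2-fold apart between Ras and WT control, where 0.701% of all kept genes were higher and 1.36% lower. Against Ras, 0 were 2-fold higher and 1 was lower in each Sras mutant, and 2 were higher and 2 lower in scrib. With 4.04%, 4.96% and 9.26% of all kept genes 2-fold higher in the 3 mutants and 9.77%, 9.95% and 14.2% lower, these lower counts are near the share over all kept genes. REPTOR, a transcription factor gene that acts when TOR is low, read 7.24 in WT control, 7.96 in Ras, 8.44 in Sras mutant 1, 8.46 in Sras mutant 2 and 9.81 in scrib. S6k, a kinase gene downstream of TOR, read 9.37, 9.21, 9.84, 10.13 and 10.74. The lower genes were slif, an amino acid transporter gene whose level of 6.61 in WT control was its only one above the filter value, and, in scrib, Sesn, a TOR inhibitor gene (5.55 against 7.18 in Ras). The core genes mTor (9.75 to 10.20) and Tsc1 (9.35 to 9.53) differed little across the 5 arrays. Medians of the list were 0.29, 0.20 and 0.15 for the mutants minus Ras. With the identity genes as reference they were −0.34, −0.49 and 1.19, where the median of all kept genes was −0.58, −0.66 and 1.15. In that setting 3, 3 and 0 genes were 2-fold lower and 0, 0 and 10 higher. The share of all kept genes past 2-fold was not counted there, so these counts are not read as results about the list.

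Among genes known to be activated by foxo in fly tissues, NLaz and Lip4 were at least 2-fold lower than Ras in all 3 mutants. Of 8 listed, 5 had a probe set and passed the filter, and neither Thor nor Ilp6 was among them. No gene was 2-fold higher in any mutant (InR reached 1.85 in scrib with the identity genes as reference), and 2, 2 and 3 were 2-fold lower in Sras mutant 1, Sras mutant 2 and scrib, against the same shares of all kept genes as above. NLaz, a lipocalin gene, read 11.13 in WT control, 10.67 in Ras, 6.57 in Sras mutant 1, 7.23 in Sras mutant 2 and 6.47 in scrib. Lip4, a lipase gene, read 8.21, 8.35, 7.14, 6.81 and 6.74. The third, in scrib, was Sesn. With the identity genes as reference, 4, 4 and 1 genes were 2-fold lower, where the median of all kept genes was −0.58, −0.66 and 1.15. The share of all kept genes past 2-fold was not counted in that setting. InR, itself such a target, and bmm, a triglyceride lipase gene (7.20 to 7.52), did not reach 2-fold. NLaz and Lip4 were low in the same arrays as most of the fat body markers. That list summed to 8567 to 15191 in the mutants against 41604 in Ras, though FASN1 of the list was higher in the mutants. The part of that tissue in the values of NLaz and Lip4 was not tested.

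Genes linked to the induction of Ilp8 in fly discs were measured as well. Of 14 listed, 11 had a probe set and all 11 passed the filter, while Xrp1, sd and upd3 had none. No gene was 2-fold apart between Ras and WT control, where 0.701% of all kept genes were higher and 1.36% lower. Ilp8 differed there by 3.21, from a WT control reading under the filter value. Above Ras by at least 2-fold were 2 genes in each Sras mutant and 4 in scrib, and none were 2-fold lower, where 4.04%, 4.96% and 9.26% of all kept genes were higher. Ets21C, a transcription factor gene induced by JNK signalling, read 5.19 in WT control, 5.54 in Ras, 8.26 in Sras mutant 1, 9.03 in Sras mutant 2 and 9.25 in scrib. Its WT control and Ras values were under the filter value. The level of p53, the damage response factor, was 9.24, 9.41, 10.58, 10.83 and 10.48. In scrib, kay, the Fos subunit of AP-1 (11.32 against 9.65 in Ras), and Irbp18, a bZIP partner of Xrp1 (11.40 against 9.84), also passed. The differences of kay were 0.34 and 0.62 in the Sras mutants, and those of Irbp18 were 0.74 and 0.88. List medians were 0.26, 0.42 and 0.56 for the mutants minus Ras, and −0.37, −0.28 and 1.69 with the identity genes as reference. The JNK kinase gene bsk (−0.19, −0.26 and −0.64 in the 3 mutants minus Ras) and egr, the TNF ligand gene (−0.69, −0.76 and −0.65), were lower. The JNK feedback gene puc was at 0.06, 0.42 and 0.56, and the Hippo effector gene yki at 0.29, 0.32 and −0.01. Of the 4 genes that passed in scrib, kay and Irbp18 were highest there by more than the SD. Ets21C did not differ beyond the SD between scrib and Sras mutant 2, nor did p53 between the Sras arrays.

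The steroid pathway that Ilp8 restrains in the animal was also represented. Of 16 genes listed from PTTH to the ecdysone response, 14 had a probe set and 11 passed the filter. None were 2-fold higher in any comparison with Ras or of Ras with WT control. Of all kept genes, 4.04%, 4.96% and 9.26% were higher in the 3 mutants than in Ras, and 0.701% in Ras than in WT control. In each of the 3 mutants the same 5 genes were 2-fold lower than Ras, where 9.77%, 9.95% and 14.2% of all kept genes were lower. They were phtm, sad, nvd, spok and sro, all ecdysone synthesis genes of the ring gland. Another such gene, dib, did not reach 2-fold, at −0.24, −0.44 and −0.15 in the 3 mutants minus Ras. Its levels in the Sras arrays (6.32 and 6.12) were under the filter value. The largest differences were those of spok, with levels of 12.09 in WT control, 11.28 in Ras, 8.85 in Sras mutant 1, 7.34 in Sras mutant 2 and 4.97 in scrib. The scrib reading of spok was under the filter value, so the size of its difference rests on a background reading. Also under it were sro in scrib (6.33) and nvd in all 3 mutants (5.55, 4.97 and 4.02). For phtm the levels were 11.28, 10.80, 9.06, 8.64 and 7.73, and for sad 11.52, 10.78, 9.30, 9.21 and 7.47. In Ras against WT control, nvd was 2-fold lower (7.37 against 8.89), where 1.36% of all kept genes were, and spok differed by −0.81. All 5 lower genes stood in the order WT control, Ras, Sras mutant 1, Sras mutant 2 and scrib from highest to lowest, which is not the order of Ilp8 turned around. Part of that order rests on readings under the filter value, and sad differed between the Sras arrays by less than the SD. The list medians were −0.48, −0.55 and −0.96 for the mutants minus Ras, and the last was 0.13 with the identity genes as reference. They belong to a gland outside the disc, and phtm, sad and nvd are among the 8 ring gland and insulin-producing cell markers summed above. Ptth, the hormone gene of the brain, read 7.47, 6.96, 7.17, 7.14 and 7.40. The hormone receptor genes EcR (8.93 to 9.49) and usp (9.45 to 9.60) were under 2-fold in every comparison with Ras. The target gene br was at 11.98, 11.98, 12.03 and 12.29 in the first 4 arrays and at 11.02 in scrib.

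**Figure D4:**
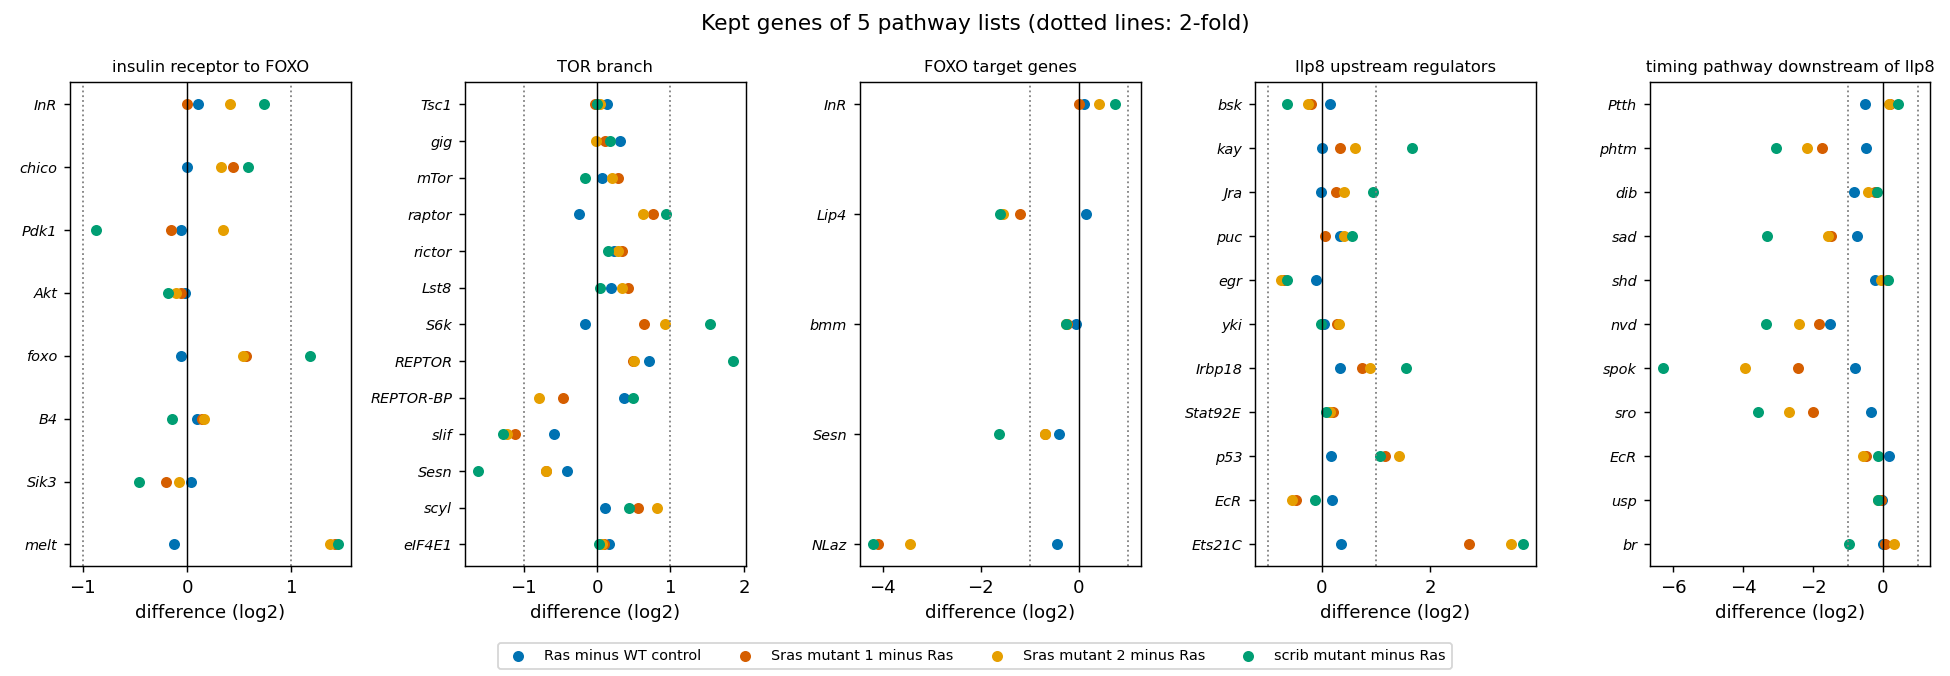
Differences in log2 units for each kept gene of 5 pathway lists, 1 point per comparison of single arrays, with 2-fold as dotted lines. Most insulin and TOR genes lie between the dotted lines, Ets21C lies 2.71 to 3.71 above Ras in the mutants, and spok lies at −2.43 to −6.31. The Ras reading of Ets21C and the scrib reading of spok were under the filter value.

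ImpL2 was also set beside 6 other genes of secreted signals, of which 4 had a probe set. In scrib all 5 measured genes, ImpL2 included, were at least 2-fold above Ras, where 9.26% of all kept genes were. These were bnl, an FGF ligand (3.88), daw, an activin-like ligand (3.57), Pvf1, a PDGF- and VEGF-like ligand (2.80), ImpL2 (2.70) and upd2, a JAK/STAT ligand (2.35). In Sras mutant 1, 1 gene was 2-fold higher, upd2 at 2.56, and 1 was lower, daw at −1.51. Of all kept genes, 4.04% were higher there and 9.77% lower. In Sras mutant 2, 3 were higher, against 4.96% of all kept genes: upd2 at 3.20, ImpL2 at 1.44 and Pvf1 at 1.13. For upd2 the WT control and Ras readings (5.62 and 5.69) were under the filter value, so its differences from Ras rest on a background reading. Pvf1 read 8.40 in WT control, 7.68 in Ras, 8.24 in Sras mutant 1, 8.80 in Sras mutant 2 and 10.48 in scrib. Against scrib, 4 of the 5 were 2-fold lower in each Sras mutant, and upd2 was at 0.21 and 0.85. Of all kept genes, 4.85% were lower than scrib in Sras mutant 1 and 4.28% in Sras mutant 2.

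The kept genes whose profile over the 5 arrays was nearest to each member were found by the root mean square difference of values centred on their mean. For Ilp8 these were spz3, a gene of the Spätzle ligand family (1.11), the cytochrome P450 genes Cyp4p1 (1.39) and Cyp6a20 (1.41), upd1, a JAK/STAT ligand gene (1.44), and Ets21C (1.47). None came close in size: spz3 ran from 6.97 in WT control and 7.79 in Ras to 11.15, 11.63 and 11.38 in the mutants, and differed by 0.82 between Ras and WT control. For ImpL2 the nearest were Alr (0.09), a sulfhydryl oxidase gene of mitochondria, MFS3 (0.12), a transporter gene, Tdc2 (0.13), the neuronal tyrosine decarboxylase gene, MME1 (0.15), a mitochondrial carrier gene, and AGO3 (0.16), an Argonaute gene of the piRNA pathway. Alr read 8.69, 8.74, 9.56, 9.92 and 11.33 from WT control to scrib. For foxo they were RIOK1 (0.03), a kinase gene of ribosome assembly, kraken (0.03), mRRF2 (0.05), Prps (0.05), an enzyme gene of nucleotide synthesis, and Prim2 (0.06), a primase subunit gene. RIOK1 read 7.33, 7.27, 7.92, 7.82 and 8.48. Of these neighbours, Cyp6a20, Ets21C, Tdc2 and mRRF2 were under the filter value in WT control and Ras. AGO3 was under it in every array but scrib. Those parts of the matched profiles rest on background readings. InR and chico had ranges under 1 and were not matched.

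**Figure D5:**
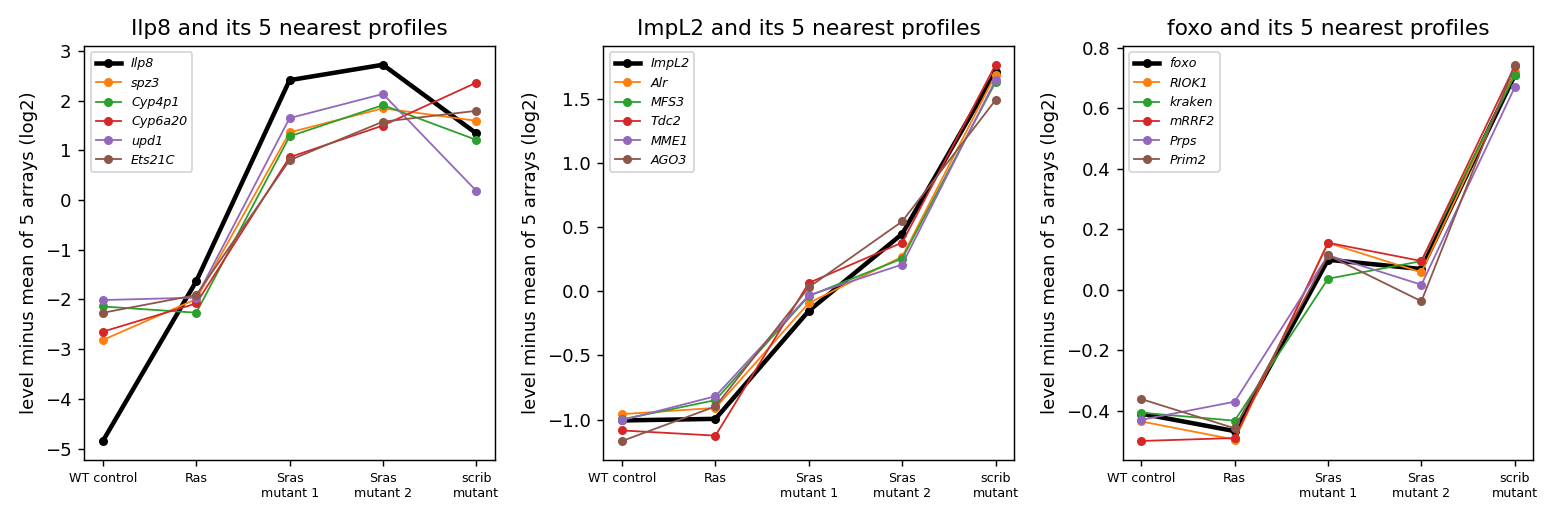
Levels of Ilp8, ImpL2 and foxo, and of the 5 kept genes nearest to each, after subtraction of each gene's mean over the 5 arrays (log2), with lines joining the values of 1 gene. ImpL2 and foxo lie within 0.16 and 0.06 (root mean square) of their neighbours, while Ilp8 differs from its nearest, spz3, by 1.11.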

How the data were processed

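The authors deposited log2 values for 18952 probe sets in each of 5 arrays. The labels do not state how these were background-corrected, normalized or summarized. That they are log2 follows from their span, 3.32 to 14.9. Array medians differed by up to 0.153, so the arrays were quantile normalized. Of the probe sets, 13646 named exactly 1 gene in the platform annotation, and 13543 of these matched current symbols in a Release 6 gene table. No sequence or coordinate was used. A gene with several probe sets was represented by that of highest mean. Genes were kept where the highest of 5 values reached the 40th percentile (6.36).

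With 1 array per group there were no replicates, so no test or p-value was computed, and the number of arrays limits the precision. Members at least 2-fold apart were counted beside the same share over all kept genes. The members and the 9 pathway and 7 marker lists were chosen with earlier results of these data known. Of 82 pathway genes, 61 had a probe set and 55 were kept. Some stand in more than 1 list, and the gene listed as susi is named B4 in the table. Named genes were all members, up to 4 higher and 4 lower 2-fold genes of each list and comparison, the genes a sentence turns on, and the 5 nearest profiles of members ranging over at least 1 log2. Counting and matching were tested on simulated data. Alternatives were the values as deposited, centring on array medians or on 19 identity genes, other filters, mean probe sets, and counting at 1.5-fold or 3-fold. Python 3.11.15, NumPy 2.4.6, pandas 2.3.3 and Matplotlib 3.10.9 were used.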

Additional observations from a re-analysis of the deposited data

Results flagged for a closer look

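The Sras arrays lay on one side of the Ras array and the scrib array on the other, each by more than the SD of 0.243, for 2 genes of the pathway lists. These were daw, at −1.51 in Sras mutant 1, −0.32 in Sras mutant 2 and 3.57 in scrib, and REPTOR-BP, which encodes the partner of REPTOR, at −0.46, −0.80 and 0.49. With 1 array per group, the difference between the mutants was not tested. None of the 5 kept members met this rule.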

How the results depend on the processing

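Out of 60 member differences (6 genes, 10 comparisons), 57 moved by less than the SD of 0.243 with the values as deposited, 59 after centring on array medians and 60 with mean probe sets. Centring on the 19 identity genes left 10 within the SD, moved 48 beyond it and reversed 2 that were past 2-fold. The sign turned in 19 differences, most of them under 2-fold. The 2 reversed were the Ilp8 differences of Sras mutant 1 (−0.73) and Sras mutant 2 (−0.49) from scrib, which also moved by more than the SD. Members 2-fold apart then numbered 2 each for Ras minus WT control, Sras mutant 1 minus Ras and Sras mutant 1 minus WT control. Lgr3, which passed the filter in this setting, was 1 of each 2 (−1.09, −1.04 and −2.14). The count was 5 each for scrib minus Ras, scrib minus WT control, and Sras mutant 1 and Sras mutant 2 minus scrib. Lgr3 was 1 of the 5 in the last 2 of these (−1.78 and −1.94). The median of all kept genes was 1.15 and 0.95 in the first 2, and −1.72 and −1.81 in the last 2. The share of all kept genes past 2-fold was not counted, so these counts are not read as results about the members. With no filter, Lgr3 was counted as lower against WT control, which made it 2 for Sras mutant 1, 3 for Sras mutant 2 and 4 for scrib. With the stricter filter, foxo dropped out and scrib had 2 members against Ras and against WT control. At 1.5-fold the counts were 2 for Sras mutant 1 minus Ras and minus WT control, 5 for scrib minus Ras and minus WT control, 4 for Sras mutant 1 minus scrib and 1 for Sras mutant 2 minus Sras mutant 1. At 3-fold they were 1 for Sras mutant 2 minus Ras and minus WT control, 1 for Sras mutant 1 minus scrib and 0 for Sras mutant 2 minus scrib. No paired analysis was possible because each group had 1 array.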
